A study of Mus musculus with 9 samples.

Results

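10 genes of the SWI/SNF chromatin remodelling complex, also called the BAF complex, were followed from mouse fibroblasts to induced pluripotent stem (iPS) cells. They were Smarca2, Smarca4, Smarcb1, Smarcc1, Smarcc2, Smarcd1, Smarcd3, Actl6a, Arid1a and Arid1b. They were chosen by name as array rows that map to 1 of these symbols only, and 10 of 10 were found, each on a single row, among 19937 genes measured. Expression was read on 9 arrays, in 3 groups of 3, as log2 values deposited by the authors. The fibroblasts, at passage 4, were taken from mice derived from TSKM iPS cells, where TSKM stands for the reprogramming factors Tet1, Sox2, Klf4 and c-Myc. The TSKM-3D cells, called day 3 here, were such fibroblasts at passage 4 that had received doxycycline for 3 days in embryonic stem cell medium, after 3 passages in feeder medium. The iPS line, at passages 10 to 15, was derived with the same 4 factors and grown with LIF on mitomycin C-treated mouse embryonic fibroblasts, which were depleted by plating for 0.5 h before collection. The strain label of the 9 samples is OG2-GFP/Rosa26-M2rtTA, so the fibroblasts used as controls carry the reporter and the transactivator too. The day-3 comparison covers the change of medium as well as doxycycline, and iPS is 1 line.

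SWI/SNF complexes use the energy of ATP to slide or eject nucleosomes and so open DNA to transcription factors. Each complex holds a single ATPase, either SMARCA4 (BRG1) or SMARCA2 (BRM), on a scaffold of SMARCC, SMARCB, SMARCD, ARID and actin-related subunits, many of which come from families of alternative paralogs. The form described in mouse embryonic stem cells is built on SMARCA4, SMARCC1, SMARCD1, ACTL6A and ARID1A, with little SMARCA2, SMARCC2 or SMARCD3. The comparisons below ask how the RNA of these alternatives differed over the stages of reprogramming.

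Arrays were closest within groups (Pearson r over genes, which are not independent replicates, 0.9909 to 0.9984 within and 0.8908 to 0.9548 between groups). The third fibroblast array is labelled as 3-day induced cells in its cell type field and as fibroblast in its title and source. It was kept as a fibroblast array. The fibroblast arrays, the third among them, correlated at 0.9978 to 0.9984 with each other and at 0.9501 to 0.9548 with day-3 arrays. On the third array the fibroblast markers Lum and Thy1 read 9.60 and 12.01, beside 3.71 to 4.36 and 9.50 to 9.71 at day 3. The summed linear level of 11 fibroblast markers ranged from 31601 to 32587 among fibroblasts. It ranged from 17776 to 18750 among day-3 arrays and from 6834 to 8612 among iPS arrays. On the log2 scale the largest falls from fibroblasts to iPS cells were in Lum (-5.15), S100a4 (-5.13), Pdgfra (-4.43) and Thy1 (-4.11). At day 3, 7 of the 11 were lower, but Twist1 (1.24), Col1a2 (0.60) and Col3a1 (0.59) rose, and Col1a1 differed by 0.11 (limma adjusted p = 0.497). From day 3 to iPS cells 8 of the 11 fell and 1, Dcn, rose (1.45; limma adjusted p = 2.47e-07). In iPS cells Lum was dim (4.48), but Col1a1 and Col1a2 read 11.47 and 10.96, brighter than 98.7% and 97.4% of genes. Whether RNA of remaining feeder fibroblasts entered the iPS values was not tested. For 12 pluripotency markers the sum was 534 to 537, 733 to 868 and 35800 to 36054, with Tdgf1, Dppa5a, Nanog and Pou5f1 higher in iPS cells than in fibroblasts by 7.77, 7.46, 6.62 and 6.55. The sum of 12 macrophage markers ranged from 1778 to 1929 among fibroblasts, from 659 to 759 among day-3 arrays and from 1311 to 1328 among iPS arrays, with Lyz2, Cd53 and C1qb lower in iPS cells than in fibroblasts by -3.14, -2.90 and -1.49 and Cd68 higher by 2.10. Of the 12, 9 were lower and 0 higher at day 3 by adjusted p, 4 of them by at least 2-fold, where 25.3% and 7.58% of all genes were lower by these rules. In iPS cells 8 were lower than in fibroblasts, 5 by at least 2-fold (all genes 29.1% and 13.8%), and Cd68 was higher. An array gives no true zero, so none of these markers can be said to be at 0. Their part in the results below was not tested. Because the RNA is bulk, fewer cells of a type and less RNA per cell cannot be told apart.

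From fibroblasts to day 3, RNA of 8 of the 10 members fell, and from day 3 to iPS cells the members parted, 3 rising and 3 falling. Over the whole course Smarca2, Smarcc2 and Arid1b fell by more than 2-fold, and Actl6a was the 1 member that rose. A gene is said here to rise or fall when limma's Benjamini-Hochberg adjusted p over the 19937 genes was under 0.05, and to be called when it also changed at least 2-fold. At day 3, 8 members were lower and 0 higher, where 25.3% of genes were lower, 19.2% higher and 44.6% either. The members are bright rows, and among genes brighter than the median gene 41.4% were lower and 25.5% higher. Day-3 and fibroblast arrays did not overlap for 8 members and for 53.1% of genes. Of the 10, 0 were called at that step (background 3.25% higher, 7.58% lower and 10.8% either), although 10143 genes of the 19937 and 8 members had an unadjusted p under 0.05. Between day 3 and iPS cells 3 members were higher and 3 lower (background 22.3% and 23.2%, 45.6% either, and 30.7% and 38.4% among the brighter genes). The arrays did not overlap for 6 (background 49.5%), and 2 higher and 1 lower were called (6.48% and 8.57%, 15.1% either). Between fibroblasts and iPS cells 1 member was higher and 6 lower (background 25.5% and 29.1%, 54.6% either, and 29.6% and 47.8% among the brighter genes). The arrays did not overlap for 7 (background 65%), and 0 higher and 3 lower were called (7.63% and 13.8%, 21.5% either). The shares of members that passed in either direction, 6 and 7 of 10, lie near the background in these later comparisons. The 8 of 10 at day 3 lie above the 44.6% of all genes. They lie near the 70.9% of genes that passed at day 3 when only the brighter genes were fitted. The median member differed by -0.61 at day 3, where the median gene differed by 0.05 and the median of the brighter genes by -0.11. The upper quartile of deposited values read 8.265, 8.247 and 8.237 for fibroblasts but 8.096, 8.05 and 8.162 for TSKM-3D cells. After quantile normalization, which gives each array the same distribution, day-3 differences of members moved up, for example from -0.33 to -0.19 for Smarca4. Smarcb1 and Smarcc1 moved from -0.03 to 0.11, and 8 members were still lower by adjusted p. The median member differed by -0.01 between day 3 and iPS cells (median gene -0.01) and by -0.31 over the whole course (median gene 0.05). The day-3 arrays enter both steps, so a chance reading at day 3 moves the values of the steps in opposite directions.

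**Figure D1:**
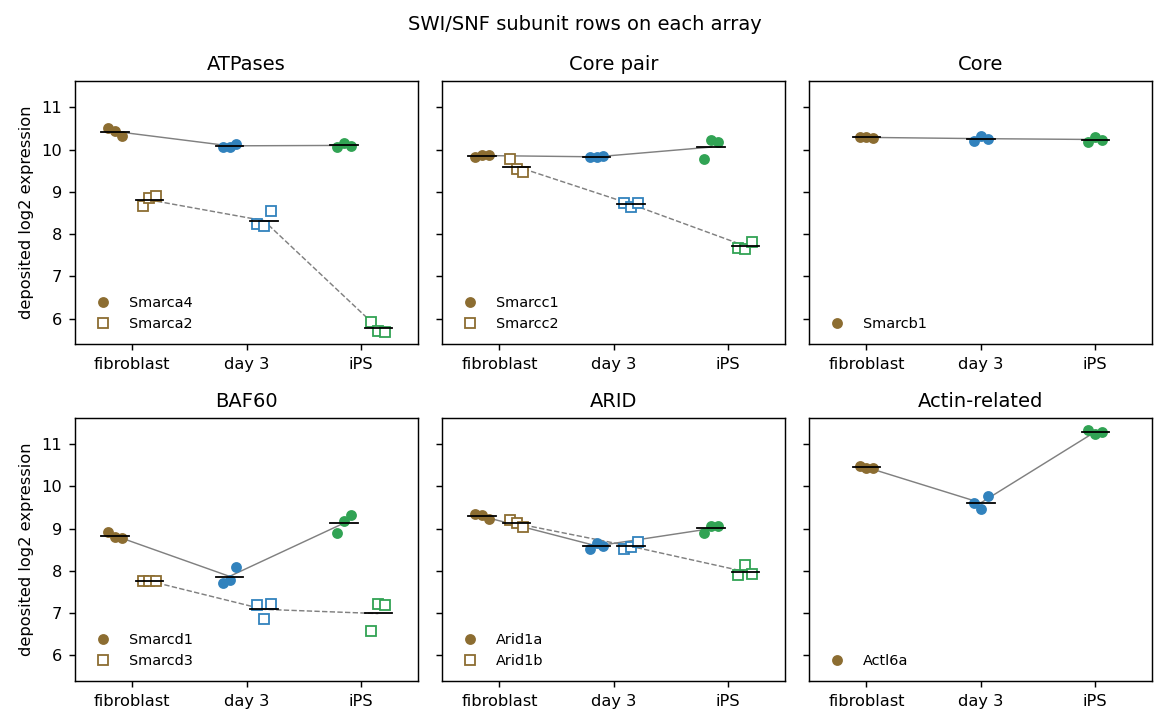
Deposited log2 expression (vertical axis) of the 10 members on each of 9 arrays, by group (horizontal axis), in panels by subunit family. Each point is an array, short bars are group means, and grey lines join the means. Smarca2 drops to 5.68 to 5.93 on the iPS arrays, while Actl6a is lowest at day 3 and highest in iPS cells. Heights of different genes come from different probes and are not comparable.

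Of the ATPase genes, Smarca2 fell 8.22-fold from fibroblasts to iPS cells and Smarca4 fell 1.25-fold. Smarca2, which encodes BRM, read 8.66, 8.86 and 8.91 on the fibroblast arrays, 8.23, 8.19 and 8.54 at day 3, and 5.93, 5.71 and 5.68 on the iPS arrays. The day-3 arrays lay below the fibroblast arrays and the iPS arrays below both, with no overlap. At day 3 Smarca2 fell by 0.49 on the log2 scale (SE 0.12, 3 arrays in each group; adjusted p = 0.00439 by limma). In the second step it fell by 2.55, or 5.85-fold (SE 0.12; adjusted p = 5.94e-09). Over the whole course it fell by 3.04 (SE 0.12; adjusted p = 8.88e-10). The second step was the larger by 2.06 (SE 0.20; adjusted p = 5.79e-06 for the difference between the steps). Only 1.2% of genes had a lower difference than Smarca2 in the iPS to day-3 comparison. The iPS level of 5.77 lay below the median gene of those arrays (6.63 to 6.67), and the files used here hold no background reading, so how far that level stands above background is not known. The 250 bases before its RefSeq start site (chr19:26604910-26605159, plus strand, GRCm38.p6) are shown as the promoter of the member that fell most, with capitals marking matches to the GC box GGGCGG on either strand.
Smarca2: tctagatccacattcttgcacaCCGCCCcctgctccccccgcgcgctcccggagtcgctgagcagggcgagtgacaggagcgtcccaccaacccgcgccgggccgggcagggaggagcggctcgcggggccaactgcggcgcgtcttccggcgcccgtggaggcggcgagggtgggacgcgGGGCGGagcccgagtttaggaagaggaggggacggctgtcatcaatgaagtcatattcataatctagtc

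Smarca4, which encodes BRG1, read 10.51, 10.43 and 10.33 in fibroblasts, 10.07, 10.07 and 10.14 at day 3, and 10.06, 10.15 and 10.09 in iPS cells. The fibroblast arrays were the highest, and the day-3 and iPS arrays overlapped. It fell at day 3 by 0.33 (SE 0.08; adjusted p = 0.0033) and then differed by 0.01 (95% confidence interval -0.16 to 0.17; adjusted p = 0.937). In iPS cells it was 1.25-fold below fibroblasts (-0.32 ± 0.08 SE; adjusted p = 0.00296). In the test of whether its steps differed the adjusted p was 0.0537, and 0.0462 without fibroblast replicate 3.

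The SMARCC subunits are the scaffold on which the complex assembles, and SMARCB1 is a core subunit that contacts the nucleosome. Smarcc2 read 9.79, 9.55 and 9.46 in fibroblasts, 8.74, 8.64 and 8.74 at day 3, and 7.67, 7.66 and 7.82 in iPS cells. The 3 groups did not overlap and stepped down in order. Smarcc2 fell by 0.89 in the first step (SE 0.09; adjusted p = 1.05e-05) and fell by 0.99 in the second (SE 0.09; adjusted p = 3.27e-06). Over the whole course it fell by 1.88, or 3.69-fold (SE 0.09; adjusted p = 8.19e-09). The steps differed by -0.10 (95% interval -0.46 to 0.26; adjusted p = 0.68). The second step stood just short of 2-fold. It passed 2-fold without TSKM-3D replicate 2 (-1.02), without iPS replicate 3 (-1.04), with array medians set equal (-1.11) and with the third fibroblast array moved to the day-3 group (-1.18). The window before its start site (chr10:128458986-128459235, plus strand, GRCm38.p6) is shown beside that of Smarca2 because both genes were called lower in iPS cells. It holds no GC box match, so it has no capitals.
Smarcc2: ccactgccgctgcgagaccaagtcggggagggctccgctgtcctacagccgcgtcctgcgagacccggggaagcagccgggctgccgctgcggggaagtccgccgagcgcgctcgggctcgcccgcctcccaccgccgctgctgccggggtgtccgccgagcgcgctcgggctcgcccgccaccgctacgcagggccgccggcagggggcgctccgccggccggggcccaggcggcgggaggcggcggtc

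Smarcc1 read 9.83, 9.88 and 9.87 in fibroblasts, 9.82, 9.83 and 9.84 at day 3, and 9.79, 10.22 and 10.18 in iPS cells. iPS replicate 1 stood with the other groups, and the other iPS arrays stood above them. Its differences did not pass the test, at -0.03 ± 0.11 SE at day 3, 0.24 ± 0.11 from day 3 to iPS cells (adjusted p = 0.0951) and 0.20 ± 0.11 over the whole course (adjusted p = 0.129; 95% interval -0.03 to 0.44). Without iPS replicate 1 they became 0.37 (adjusted p = 0.00163) and 0.34 (adjusted p = 0.00231). After quantile normalization the difference over the whole course was 0.33 (adjusted p = 0.0151). Smarcb1 did not pass in any of the 3 comparisons. It read 10.28 to 10.30 in fibroblasts, 10.20 to 10.33 at day 3 and 10.17 to 10.31 in iPS cells, and the groups overlapped. Over the whole course it differed by -0.05 (95% interval -0.21 to 0.11; adjusted p = 0.572), and by -0.22 with array medians set equal (adjusted p = 0.0371).

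The SMARCD subunits link the complex to transcription factors. SMARCD1 is the form described in embryonic stem cells, and SMARCD3 is known for its role in heart and muscle. Smarcd1 read 8.91, 8.80 and 8.78 in fibroblasts, 7.71, 7.79 and 8.10 at day 3, and 8.90, 9.17 and 9.32 in iPS cells. The day-3 arrays were below both other groups, which overlapped. It fell by 0.96 at day 3 (SE 0.12; adjusted p = 4.65e-05) and rose by 1.26 thereafter, or 2.40-fold (SE 0.12; adjusted p = 3.81e-06). This rise was past 2-fold in its estimate but not when tested against 2-fold itself (limma treat, adjusted p = 0.249). The day-3 fall passed 2-fold without TSKM-3D replicate 3 (-1.08) and with array medians set equal (-1.02). Between fibroblasts and iPS cells Smarcd1 differed by 0.30 ± 0.12 (adjusted p = 0.059), a call that changed to a pass without iPS replicate 1 (0.41; adjusted p = 0.0145), without TSKM-3D replicate 3 (adjusted p = 0.0294) and after quantile normalization (0.46; adjusted p = 0.0032). Its upstream window (chr15:99702037-99702286, plus strand, GRCm38.p6) is shown, with GC box matches in capitals, because this gene and Actl6a both dipped at day 3 and then rose.
Smarcd1: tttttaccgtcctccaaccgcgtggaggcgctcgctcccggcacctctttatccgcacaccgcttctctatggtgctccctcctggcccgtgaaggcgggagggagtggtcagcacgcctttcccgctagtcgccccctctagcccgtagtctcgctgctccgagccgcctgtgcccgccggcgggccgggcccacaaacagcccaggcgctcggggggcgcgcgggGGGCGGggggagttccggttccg

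Smarcd3 read 7.77, 7.75 and 7.75 in fibroblasts, 7.19, 6.86 and 7.22 at day 3, and 6.58, 7.22 and 7.19 in iPS cells. The fibroblast arrays were above the rest, and the day-3 and iPS arrays overlapped. It fell by 0.67 at day 3 (SE 0.16; adjusted p = 0.00432) and was 0.76 lower in iPS cells than in fibroblasts (-0.76 ± 0.16 SE; adjusted p = 0.00132). From day 3 to iPS cells it differed by -0.09 (95% interval -0.44 to 0.25; adjusted p = 0.683). iPS replicate 1 was the low reading, and without it that difference was 0.11. The steps then differed by 0.78 (adjusted p = 0.00537), against 0.58 with it (adjusted p = 0.117). Of 9 muscle markers 8 were higher and 1 lower in iPS cells than in fibroblasts by adjusted p (all genes 25.5% and 29.1%), and 2 and 1 were called at 2-fold (7.63% and 13.8%). Their part in the values of Smarcd3 was not tested.

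Actl6a encodes an actin-related subunit of proliferating cells that is also part of the INO80 and TIP60 complexes. It read 10.47, 10.44 and 10.44 in fibroblasts, 9.60, 9.46 and 9.77 at day 3, and 11.34, 11.24 and 11.29 in iPS cells. The groups did not overlap, with day 3 lowest and iPS highest. It fell by 0.84 at day 3 (SE 0.09; adjusted p = 8.74e-06), rose by 1.68, or 3.21-fold, from day 3 to iPS cells (SE 0.09; adjusted p = 1.83e-08), and ended 1.79-fold above fibroblasts (0.84 ± 0.09 SE; adjusted p = 4.92e-06). The steps differed by 2.52 ± 0.15 (adjusted p = 1.19e-07). Only the rise from day 3 passed 2-fold, and it also passed the test against 2-fold. Actl6b, the paralog known from neurons, read 5.37 to 5.95 over the 9 arrays, below the median gene, and differed by 0.15 ± 0.12 between iPS cells and fibroblasts (adjusted p = 0.345). Of 9 neural markers 3 were higher and 3 lower in that comparison by adjusted p (all genes 25.5% and 29.1%), and 0 and 1 were called at 2-fold (7.63% and 13.8%). The window upstream of Actl6a (chr3:32708296-32708545, plus strand, GRCm38.p6) is shown for comparison with that of Smarcd1, again with GC box matches in capitals.
Actl6a: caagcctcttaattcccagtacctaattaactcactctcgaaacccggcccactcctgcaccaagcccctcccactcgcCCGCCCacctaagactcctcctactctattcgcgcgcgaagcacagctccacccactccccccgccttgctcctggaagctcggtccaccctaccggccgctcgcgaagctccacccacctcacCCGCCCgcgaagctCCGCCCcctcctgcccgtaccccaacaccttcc

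ARID1A and ARID1B are the alternative DNA-binding subunits that define the BAF form of the complex. Arid1a read 9.34, 9.32 and 9.22 in fibroblasts, 8.51, 8.66 and 8.59 at day 3, and 8.89, 9.05 and 9.07 in iPS cells. Day 3 was lowest and the 3 groups did not overlap. It fell by 0.71 at day 3 (SE 0.08; adjusted p = 1.98e-05), rose by 0.42 thereafter (SE 0.08; adjusted p = 0.00105) and ended 0.29 below fibroblasts (-0.29 ± 0.08 SE; adjusted p = 0.0091). That last difference was -0.13 after quantile normalization (adjusted p = 0.212). Arid1b read 9.21, 9.13 and 9.03 in fibroblasts, 8.51, 8.56 and 8.68 at day 3, and 7.90, 8.13 and 7.92 in iPS cells. Its groups stepped down without overlap. Arid1b fell by 0.54 (SE 0.09; adjusted p = 3.57e-04), then by 0.60 (SE 0.09; adjusted p = 1.43e-04), and by 1.14 in all, or 2.20-fold (SE 0.09; adjusted p = 3.98e-07). The fall over the whole course was -0.97 after quantile normalization, inside 2-fold, and did not pass the test against 2-fold itself (limma treat, adjusted p = 0.415). Its steps differed by -0.06 (95% interval -0.40 to 0.29; adjusted p = 0.812).

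**Figure D2:**
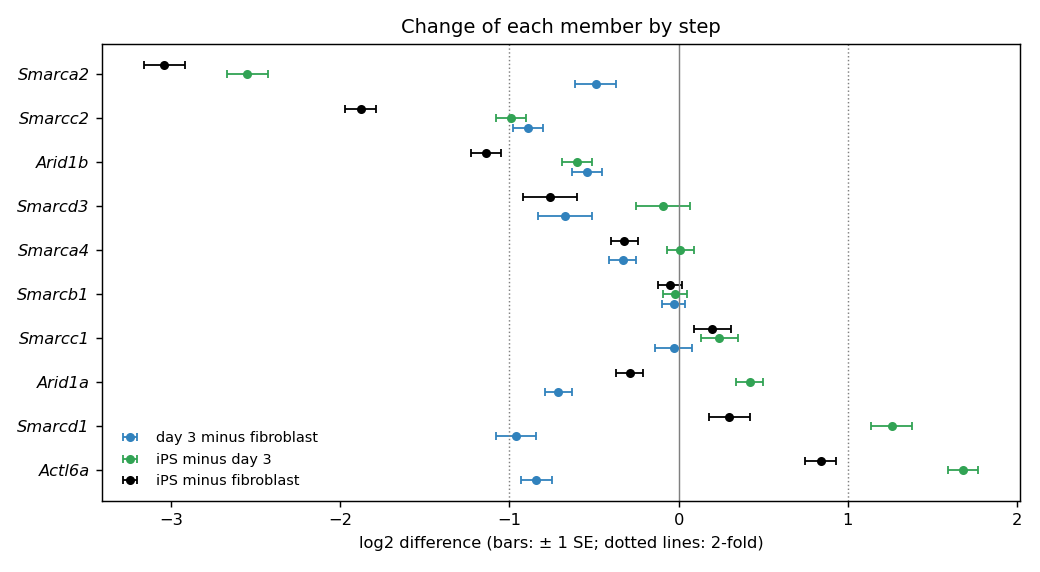
Log2 difference (horizontal axis) of each member for day 3 minus fibroblast (blue), iPS minus day 3 (green) and iPS minus fibroblast (black), with bars of 1 SE from limma and dotted lines at 2-fold. Smarca2 lies at -3.04 and Actl6a at 0.84 over the whole course, and the day-3 values of the 10 members lie between -0.96 and -0.03.

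The members were sorted by the test of the difference between steps, which 3 passed with a second step further up and 1 with it further down. For Smarca2 the second step lay further down than the first, for Actl6a, Smarcd1 and Arid1a it lay further up (by 2.52, 2.23 and 1.12; adjusted p = 1.19e-07, 5.09e-06 and 4.30e-05), and for the other 6 the steps were not shown to differ. Across genes the steps differed for 42.7%, with 23.3% further up and 19.4% further down in the second step. The share of members that passed lies near that background. When only the brighter genes were fitted, 68.5% of genes passed. In that fit 4 members were further up, Smarca4 being added (limma adjusted p = 0.026), and 1 further down. The 6 that did not pass in the main fit share no common course. Smarcc2 and Arid1b fell in both steps. Smarca4 and Smarcd3 fell in the first and did not pass in the second, but the difference between their steps did not pass either.

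Alternative paralogs were then compared within each array. The log2 value of one was subtracted from that of the other, and the difference was set to 0 at its fibroblast mean, because the absolute gap between rows with different probes has no meaning. Smarca4 minus Smarca2 stood at 0.23, -0.04 and -0.19 on the fibroblast arrays, 0.22, 0.27 and -0.02 at day 3 and 2.52, 2.83 and 2.80 on the iPS arrays. The difference between the ATPase RNAs overlapped between fibroblasts and day 3 (0.16 ± 0.15 SE) and lay 6.57-fold further toward Smarca4 in iPS cells. Smarcc1 minus Smarcc2 rose in both steps, to 0.82, 0.93 and 0.83 at day 3 and 1.86, 2.30 and 2.10 in iPS cells, 4.24-fold in all. Smarcd1 minus Smarcd3 went to -0.55, -0.14 and -0.19 and then to 1.25, 0.88 and 1.06. For Arid1a minus Arid1b the values were -0.17, -0.07 and -0.26 at day 3 and 0.82, 0.75 and 0.98 in iPS cells. Actl6a minus Actl6b stood at -1.02, -1.35 and -0.60 at day 3 and at 0.68, 0.68 and 0.72 in iPS cells. Actl6b is not shown to be above background, since its mean of 5.59 in fibroblasts is near those of Pou5f1 and Nanog there (5.63 and 5.76), so this last difference restates Actl6a and its p is not given. In iPS cells the differences of the other pairs lay above those of the fibroblast arrays without overlap, by 2.71, 2.09, 1.06 and 0.85 in the order given. That of Actl6a and Actl6b, which restates Actl6a, lay above by 0.69, also without overlap. An exact permutation test over the 1680 assignments of 9 arrays to 3 groups gave p = 0.0107 for Smarca4 and Smarca2 and p = 0.00357, the smallest it can give, for Smarcc1 and Smarcc2, Smarcd1 and Smarcd3, and Arid1a and Arid1b. Between any 2 groups the exact two-sided test cannot go below 0.1. These values show unequal change within a pair, not which gene changed.

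**Figure D3:**
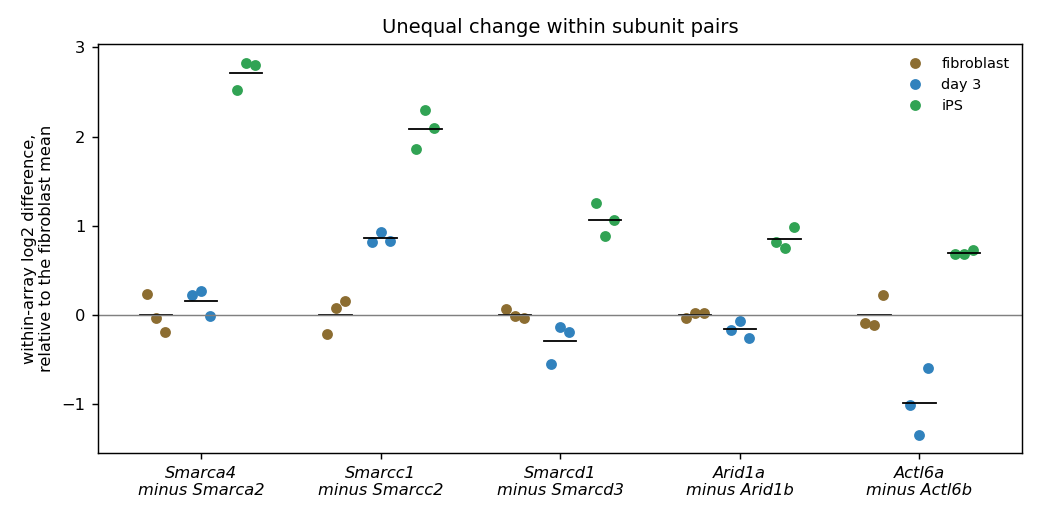
Within-array log2 difference between the paralogs of 5 pairs (vertical axis), set to 0 at the fibroblast mean, for fibroblast, day-3 and iPS arrays. Points are arrays and bars are group means. The iPS arrays lie above the fibroblast arrays in each pair, and the day-3 arrays overlap the fibroblast arrays only for Smarca4 minus Smarca2. Actl6b is not shown to be above background, so its pair restates Actl6a.

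Promoter windows were looked up for the members in RefSeq (GRCm38.p6), and 10 of 10 matched, with 11 windows since Arid1a has 2. They were GC-rich, with 59.6% to 81.6% G or C, where the median over 32851 windows of the same length was 52.4%. The GC box GGGCGG, searched on both strands with overlapping matches counted, was in 10 of the 11 member windows and in 32.7% of all windows. That share is not matched for G and C content, in which the member windows lie at percentiles 71.1 to 99.3 of all windows. The window of Smarcc2 was the one without a match. CCAAT was in 0 of 11 (33.8% of all windows), CACGTG, the E box bound by MYC, in 0 of 11 (6.02%) and ATTTGCAT, the octamer bound by POU5F1, in 0 of 11 (1.6%). The printed windows of the genes that fell (Smarca2 and Smarcc2) hold 2 and 0 GC boxes and those of the genes that dipped and rose (Smarcd1 and Actl6a) hold 1 and 3. Of windows not printed, that of Arid1b, also called lower in iPS cells, holds 1. Those of Arid1a, which also dipped and rose, hold 1 and 7. A match is a description of the letters and no evidence of binding, and no match says only that the letters are not in this window.

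Of 21 further SWI/SNF subunits, 2 were higher and 5 lower at day 3 (adjusted p under 0.05; background 19.2% and 25.3%), 3 higher and 7 lower between day 3 and iPS cells (22.3% and 23.2%), and 2 higher and 8 lower over the whole course (25.5% and 29.1%). Called at 2-fold were 0 of 21 at day 3, Bicral (higher) from day 3 to iPS cells, and Bicral (higher) and Phf10 (lower) over the whole course, where 10.8%, 15.1% and 21.5% of all genes were called in either direction. At day 3, 7 of the 21 passed the adjusted p without reaching 2-fold. The median of the 21 was -0.06 at day 3, -0.07 in the second step and -0.13 overall. Bicral, a subunit of the non-canonical complex that also holds BRD9, read 7.47, 7.41 and 7.41, then 6.53, 6.38 and 6.91, then 8.61, 8.52 and 8.22. It fell by 0.83 (SE 0.14; adjusted p = 3.40e-04) and rose by 1.85 (SE 0.14; adjusted p = 3.39e-07), ending 1.02 above fibroblasts. That end difference was inside 2-fold with array medians set equal, without iPS replicate 1 and without iPS replicate 2. Phf10, a subunit of the polybromo form (PBAF), read 9.85, 9.94 and 9.73, then 8.84, 8.71 and 9.12, then 8.40, 8.57 and 8.62. It fell by 0.95 at day 3 (SE 0.11; adjusted p = 2.45e-05) and by 1.31 in all (SE 0.11; adjusted p = 8.48e-07). Its fall from day 3 to iPS cells (-0.36; adjusted p = 0.0206) did not pass without TSKM-3D replicate 3 or iPS replicate 1 (adjusted p = 0.0705 and 0.0842).

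A few further subunits are named after their values were seen. Dpf2, a histone-reading subunit of the BAF form, dipped and returned, with fibroblast arrays at 10.20 ± 0.01 (SD, n = 3), day-3 arrays at 9.34 ± 0.07 and iPS arrays at 10.23 ± 0.14 (limma adjusted p = 6.54e-06 for the fall and 3.54e-06 for the rise). Bicra, the paralog of Bicral, fell by 0.95 at day 3 (SE 0.11; adjusted p = 2.51e-05) and then differed by 0.01 ± 0.11. Brd9 rose by 0.55 at day 3 (SE 0.08; adjusted p = 1.21e-04) and fell by 0.42 after it (SE 0.08; adjusted p = 7.87e-04). Pbrm1, the defining subunit of the polybromo form, rose by 0.27 at day 3 on its brightest row (adjusted p = 0.0206), but its other 2 rows went down, from 9.54 to 9.35 and from 9.05 to 8.54, so its direction at that step is uncertain. The 3 rows of Smarce1 also disagreed. Its brightest row read 10.21 in fibroblasts and 10.39 in iPS cells and another read 10.67 and 9.87. Smarcd2, the third SMARCD gene, differed by -0.05 between iPS cells and fibroblasts (95% interval -0.22 to 0.12).

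**Figure D4:**
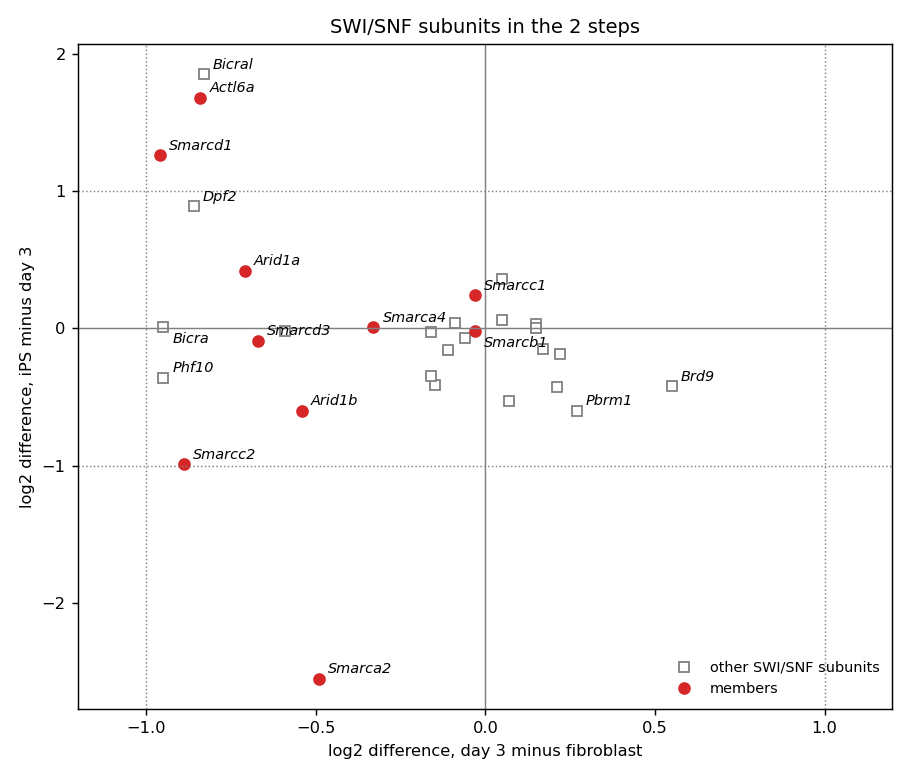
Log2 difference from day 3 to iPS cells (vertical axis) against that from fibroblasts to day 3 (horizontal axis) for the 10 members (red) and 21 other SWI/SNF subunits (open squares), with dotted lines at 2-fold. The day-3 arrays enter both axes, so chance readings at day 3 tilt points from upper left to lower right. Actl6a, Smarcd1, Bicral and Dpf2 lie at upper left and Smarca2 and Smarcc2 at lower left.

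Other remodeller families had counts of their own over the whole course. Of 13 ISWI complex genes 3 were called higher and 1 lower (background 7.63% and 13.8%), with Cecr2 at 3.10 from a dim fibroblast reading of 4.89, Baz2a at 1.31, the ATPase gene Smarca5 at 1.01 and Chrac1 at -1.61. Of 18 CHD and NuRD genes 0 were called higher and 4 lower, which were Chd3 (-1.79), Mta1 (-1.54), Mbd2 (-1.47) and Gatad2b (-1.13). Of 20 measured genes of the INO80, SRCAP and TIP60 complexes 3 were called higher and 0 lower. These were the helicase genes Ruvbl1 and Ruvbl2 (1.60 and 1.31) and Dmap1 (1.02), while Ino80c differed by -0.84. The median differences of the 3 families were 0.29, 0.12 and 0.01, beside -0.31 for the 10 SWI/SNF members and 0.05 for all genes. At day 3 the families' medians were 0.00, 0.06 and -0.12, beside -0.61 for the members. The difference between families was not tested.

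For the 5 members called in a comparison, the named genes with the most similar course were found by Pearson's r over the 9 arrays, as a description. The arrays form 3 groups, so r reflects little more than the order and spacing of 3 levels, and many genes reach high values. Closest to Smarca2 were Sdcbp, Rab14 and Cnn2 (r = 0.9989, 0.9989 and 0.9986), of which Cnn2, an actin-binding calponin, had group means of 12.24, 11.76 and 9.52 in time order. Closest to Smarcc2 were Lrrc8a, Dlg5 and Phf2 (0.9979, 0.9974 and 0.9972), with Phf2, a histone demethylase gene, at 9.24, 8.01 and 6.69. For Arid1b they were Gaa, Nbas and Tnn (0.9967, 0.9954 and 0.9952). Closest to Actl6a were Cth, Zfp57 and Ddx56 (0.9976, 0.9962 and 0.9959). Zfp57, which protects imprinted DNA methylation, read 9.42, 7.79 and 11.44, with the same order of groups as Actl6a. For Smarcd1 they were Rnf31, Lsm4 and Sf3b4 (0.9940, 0.9919 and 0.9890), the last a splicing factor gene at 8.41, 7.67 and 8.72.

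By adjusted p, the first step depends on the group given to the third fibroblast array, whose correlations and marker readings, given above, lie with the other fibroblast arrays. When it was grouped with the day-3 arrays instead, following its cell type field, 0 of the 10 members passed at day 3 (lowest adjusted p = 0.165), as did 0 of 19937 genes in limma, with 5359 genes at an unadjusted p under 0.05. The differences themselves kept their sign and much of their size, for example -0.32 for Smarca4, -0.77 for Smarcc2, -0.58 for Arid1a and -0.48 for Arid1b. The enlarged group still held the 3 day-3 arrays, so this was largely fixed in advance and says nothing about which label is right. Among the 8 members that passed at day 3 in the main fit, Smarca2 moved furthest in proportion, from -0.49 to -0.29. Under that placement the rise of Arid1a from day 3 to iPS cells (0.26; adjusted p = 0.296) and its difference over the whole course (-0.33, beside -0.29 before; adjusted p = 0.236) did not pass either, while the fall of Smarca2 from day 3 to iPS cells was still called (-2.70; adjusted p = 5.70e-06).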

How the data were processed

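RNA of 9 mouse samples was hybridised to Affymetrix whole-transcript arrays, 1 array each, with biotin labelling per the labels. The deposited values are on a log2 scale, judged from their range. How the authors normalised them, and with which software, is not given in the sources used here, and scale, centring and direction rest on the values alone. Array medians were 6.01 to 6.23, and no further scaling was applied.

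Gene symbols came from the platform annotation. Of 34760 rows, 21640 carried 1 symbol, 1321 several and 11799 were not listed. Of the first, 21553 matched RefSeq GRCm38.p6. Each of 19937 genes was read on its row of highest mean.

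Groups came from titles. All 3 groups entered a single limma 3.58.1 model (R 4.3.3; lmFit, contrasts, eBayes) with Benjamini-Hochberg adjustment over all genes. A further contrast tested whether the 2 steps differed. Paralog differences were tested by exact permutation. The fit was checked on simulated data. The labels do not say that arrays came from separate cultures, so p-values measure the spread between arrays, which may be technical. Their number, 3 per group, limits the precision.

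The members, the gene lists (SWI/SNF, ISWI, CHD and NuRD, INO80, and fibroblast, pluripotency, macrophage, neural and muscle markers) and the rules were chosen with earlier results of these data known. Named are the members, other SWI/SNF subunits called at 2-fold, at most 4 genes of each further list by the size of the iPS to fibroblast difference, and the 3 genes most like each called member. Outside this rule, Dpf2, Bicra, Brd9, Pbrm1, Smarce1, Smarcd2, Actl6b, Twist1, Dcn, Col1a1, Col1a2 and Col3a1 were named after their values were seen. Neural and muscle markers are given as counts. Same-numbered replicates were checked for pairing, and their deviations from group means correlated at -0.098 to 0.062. Differently numbered ones correlated at -0.132 to 0.13. No pairing was seen, but with 3 arrays per group the check is weak and cannot exclude it. Alternatives were scaling, row choice, dim genes left out, the groups in the fit, a test against 2-fold, the third fibroblast array's group, a replicate block and leaving out each array.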

Additional observations from a re-analysis of the deposited data

How the results depend on the processing

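Over 40 results (each member in 3 comparisons and in the difference between steps) and 700 alternatives, 686 kept their side of the threshold for a call (adjusted p under 0.05 and 2-fold, or adjusted p alone for the difference between steps), 4 lost the call, 10 gained it and 0 called values reversed. Most of the 40 were not called in the main fit, so most of the 686 are results that stayed uncalled. The rule for a rise or fall, adjusted p alone, was less stable. Over the whole course Smarcb1, Smarcc1, Smarcd1 and Arid1a changed side under at least 1 alternative. From day 3 to iPS cells Smarcc1 and Arid1a did. By adjusted p alone, 8 members were lower at day 3 under each alternative run without a 2-fold threshold except that with the third fibroblast array moved, which gave 0. Smarca2 stayed called in the second step and over the whole course under every alternative run (-2.70 to -2.44 and -3.21 to -2.99), as did Smarcc2 over the whole course (-2.05 to -1.74) and Actl6a in the second step (1.47 to 1.76). The 4 lost calls were Smarcd1 from day 3 to iPS cells and Arid1b over the whole course when tested against 2-fold, Arid1b after quantile normalization, and the step difference of Arid1a with the third fibroblast array moved.

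With array medians set equal, 1 member (Smarcd1) was called lower at day 3 in place of 0, and 2 (Smarca2 and Smarcc2) in place of 1 from day 3 to iPS cells. This scaling moves the median gene to -0.13 in that comparison and to -0.12 over the whole course. Among the other 21 subunits 2 were called lower at day 3 (Bicra and Phf10) in place of 0, and 0 called higher and 2 called lower over the whole course in place of 1 and 1, and 3 had a higher second step by adjusted p in place of 5. Tested against 2-fold, 1 member was called higher from day 3 to iPS cells in place of 2, and 0 other subunits were called either way over the whole course. With the third fibroblast array moved, 2 members were called lower at 2-fold from day 3 to iPS cells, and by adjusted p 2 other subunits had a higher and 2 a lower second step, in place of 5 and 4. The causes were not tested.

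Leaving out 1 array at a time gave 0 to 1 members called lower at 2-fold at day 3 and 1 to 2 from day 3 to iPS cells, while by adjusted p alone 8 and 3 were lower in each such fit. By adjusted p, 3 to 5 members had a higher second step (5 without iPS replicate 1, which added Smarcc1 and Smarcd3). Of the other subunits, 0 to 1 were called lower at 2-fold at day 3, and 0 to 1 higher and 1 to 2 lower over the whole course, while by adjusted p alone 5 were lower at day 3 and 2 higher and 8 to 9 lower over the whole course. By adjusted p, 3 to 5 had a higher and 3 to 4 a lower second step. With the replicate block each of these counts kept its main value, 2159 genes were called at day 3 as without the block, and Smarcd1 passed over the whole course (0.30; limma adjusted p = 0.047). Not every array correlated best with its own number. The step difference has no value with only 2 groups in the fit and was not run against 2-fold. The files used here hold no background reading, which limits low values such as Smarca2 in iPS cells.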
